A study of Homo sapiens with 36 samples.

Results

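The super elongation complex releases paused RNA polymerase II into productive transcription. The account below follows 10 genes of this complex and its control, ELL, ELL2, EAF1, EAF2, AFF1, AFF4, CDK9, CCNT1, CCNT2 and HEXIM1, which were taken by gene name from the 61805 genes of a count table. Each name matched 1 gene, and all 10 passed the filter on low counts in every fit. The study sequenced polyadenylated RNA of human prostate cancer lines in 12 groups of 3 libraries. LNCaP cells grow in an androgen-dependent way, and 42D cells descend from them and resist the antiandrogen enzalutamide.

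The LNCaP lines are NT3, sgT33-5, sgT33-5_MC_C2 (C2 below) and sgT33-5_MC_F2 (F2 below), and there are also 42D lines named NT3 and sgT33-5. No label spells these names out or says whether C2 and F2 are single clones. Because the series is titled for loss of TRIM33, a chromatin-bound ubiquitin ligase, sgT33-5 was taken for a guide RNA against it and NT3 for the non-targeting control. All groups share 3 days of culture in medium with charcoal-stripped serum, which holds little hormone, followed by 6 h of either DMSO, the solvent, or 5 nM R1881, a synthetic androgen. The labels number the replicates 1 to 3 without saying whether they were separate cultures, so the p-values measure the spread between these libraries.

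ELL and ELL2 are elongation factors that raise the rate at which RNA polymerase II moves. EAF1 and EAF2 bind the ELL proteins, and AFF1 and AFF4 are the scaffolds that hold the complex together. CDK9 with cyclin T1 or T2 (CCNT1, CCNT2) forms the kinase P-TEFb, which phosphorylates the polymerase and the factors that pause it. HEXIM1 holds P-TEFb inactive on the 7SK RNA. In the prostate, ELL2 and EAF2 are known androgen-responsive genes, and EAF2 was first described as a gene raised by androgen in the rat prostate.

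The libraries held 13900744 to 19793268 counts. TRIM33 checked the labels: with DMSO it stood at 93.4 ± 3.81 CPM (reads counted for a gene, scaled to the library's total, SD, n = 3) in LNCaP NT3 and at 47.8, 35.1 and 42.3 CPM in sgT33-5, C2 and F2, and in 42D at 84.5 CPM in NT3 against 57.3 CPM in sgT33-5. In LNCaP, 2 sgT33-5 libraries stood apart by their mitochondrial share of counts, DMSO replicate 3 with 2.14% and R1881 replicate 1 with 2.4%, and results that change without both are given below. The 6 luminal prostate markers used were all detected, with sums of 1940 to 6750 CPM in LNCaP and 1880 to 4120 CPM in 42D. Basal markers summed to at most 0.614 CPM and leukocyte markers to at most 0.562 CPM in any library, and of the fibroblast list only COL1A1 was above traces. In bulk RNA, fewer cells of a type and less RNA per cell cannot be told apart.

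Per kb of exon, the scaffold AFF4 and the inhibitor HEXIM1 were the most abundant members in LNCaP NT3 without androgen, at 31.5 and 27.5 CPM per kb. EAF1 (21.7), CDK9 (19.7), CCNT1 (15.8) and AFF1 (12.9) followed. ELL (6.23), CCNT2 (6.21), ELL2 (5.43) and EAF2 (2.15 CPM per kb) were the lowest. With R1881, ELL2 stood at 24 CPM per kb, beside EAF1 at 23.8, while AFF4 (36.6) and HEXIM1 (32.2) still stood highest. Over all 12 groups, the highest group mean was 8.67 times the lowest for ELL2 and 7.8 times for EAF2. The same ratio was 2.24 for HEXIM1 and 1.22 to 1.62 for the other 7 members.

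**Figure D1:**
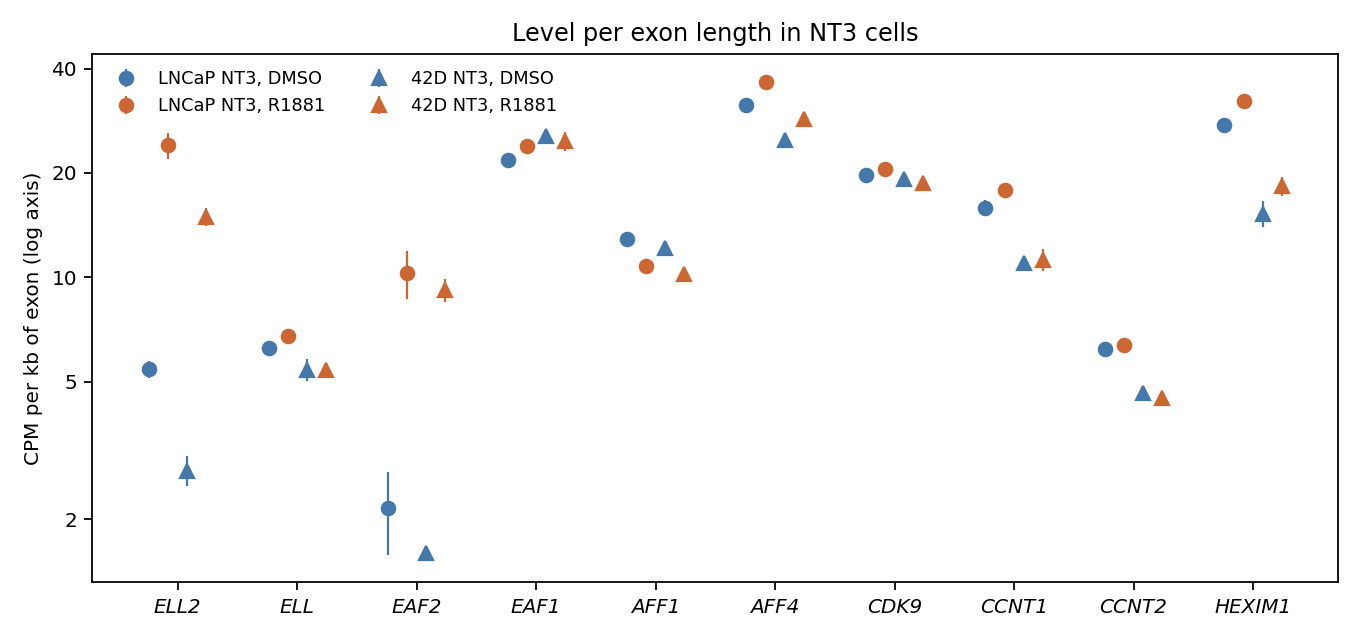
Mean level of each member in CPM per kb of exon (log axis, bars are the SD over 3 libraries) in NT3 cells of LNCaP (circles) and 42D (triangles), with DMSO (blue) or R1881 (orange). ELL2 and EAF2 are low with DMSO and far higher with R1881, and the other 8 members move little between treatments.

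R1881 raised ELL2 (ENSG00000118985, chr5:95885098-95961851, GRCh38) in all 6 lines. In LNCaP NT3 the libraries held 41.9, 40.1 and 37.4 CPM with DMSO and 175, 191 and 161 CPM with R1881 (replicates 1 to 3). In sgT33-5 they held 35.7, 36.2 and 42.8 CPM and 133, 142 and 155 CPM in the same order. The lowest R1881 library of either line lay far above its highest DMSO library. In C2 the values were 23.6, 20.3 and 21.6 CPM with DMSO and 57.9, 60.2 and 62.7 CPM with R1881, and in F2 49.3, 45.3 and 45.2 CPM and 142, 171 and 140.0 CPM. C2 was the lowest LNCaP line at both treatments, and its R1881 libraries lay closer to the DMSO libraries of F2 than to any other R1881 library. In 42D, NT3 held 19.8, 22.4 and 18.5 CPM with DMSO and 109, 117 and 104 CPM with R1881, and sgT33-5 22, 20.4 and 21.3 CPM and 111, 117 and 103 CPM. No DMSO library overlapped an R1881 library of its line.

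The log2 fold change of ELL2 was 2.14 (SE 0.0852, adjusted p = 8.57e-16) in LNCaP NT3, a fold of 4.4. The other LNCaP lines followed with 1.90 (SE 0.0851, adjusted p = 1.09e-14) for sgT33-5, 1.69 (SE 0.083, adjusted p = 8.71e-14) for F2 and 1.46 (SE 0.0904, adjusted p = 1.33e-11) for C2. In 42D it was 2.46 (SE 0.0696, adjusted p = 3.14e-17) in NT3 and 2.39 (SE 0.0686, adjusted p = 3.54e-17) in sgT33-5. These calls held under each alternative run. ELL2 was already known as a rising gene in these libraries when the members were chosen.

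EAF2 (ENSG00000145088, chr3:121835183-121886526), the ELL-binding partner, rose beside ELL2 in all 6 lines, with 42 to 390 counts in a library. LNCaP NT3 held 3.51, 4.95 and 2.98 CPM with DMSO and 17.2, 21.5 and 16 CPM with R1881, and sgT33-5 3.15, 3.28 and 2.75 CPM and 11.4, 10.6 and 12 CPM. In C2 the libraries held 3.56, 2.40 and 2.71 CPM and 5.52, 5.84 and 5.20 CPM, and in F2 3.69, 3.31 and 3.66 CPM and 13.3, 16.6 and 13.1 CPM. The C2 libraries overlapped those of NT3 with DMSO and lay below all of them with R1881. In 42D, NT3 held 2.75, 2.92 and 2.81 CPM and 15.7, 17.7 and 15.4 CPM, and sgT33-5 3.37, 4.12 and 2.78 CPM and 21.8, 24.5 and 19.8 CPM. The highest group mean of EAF2 was that of 42D sgT33-5 with R1881. The log2 fold changes were 2.26 (SE 0.153, adjusted p = 1.34e-11) in LNCaP NT3, 1.88 in sgT33-5, 0.92 in C2 (adjusted p = 0.000874) and 2.0 in F2. In 42D they were 2.55 in NT3 and 2.69 in sgT33-5 (adjusted p = 1.71e-13). Treatments did not overlap in any line, and these 6 calls held under each alternative run.

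**Figure D2:**
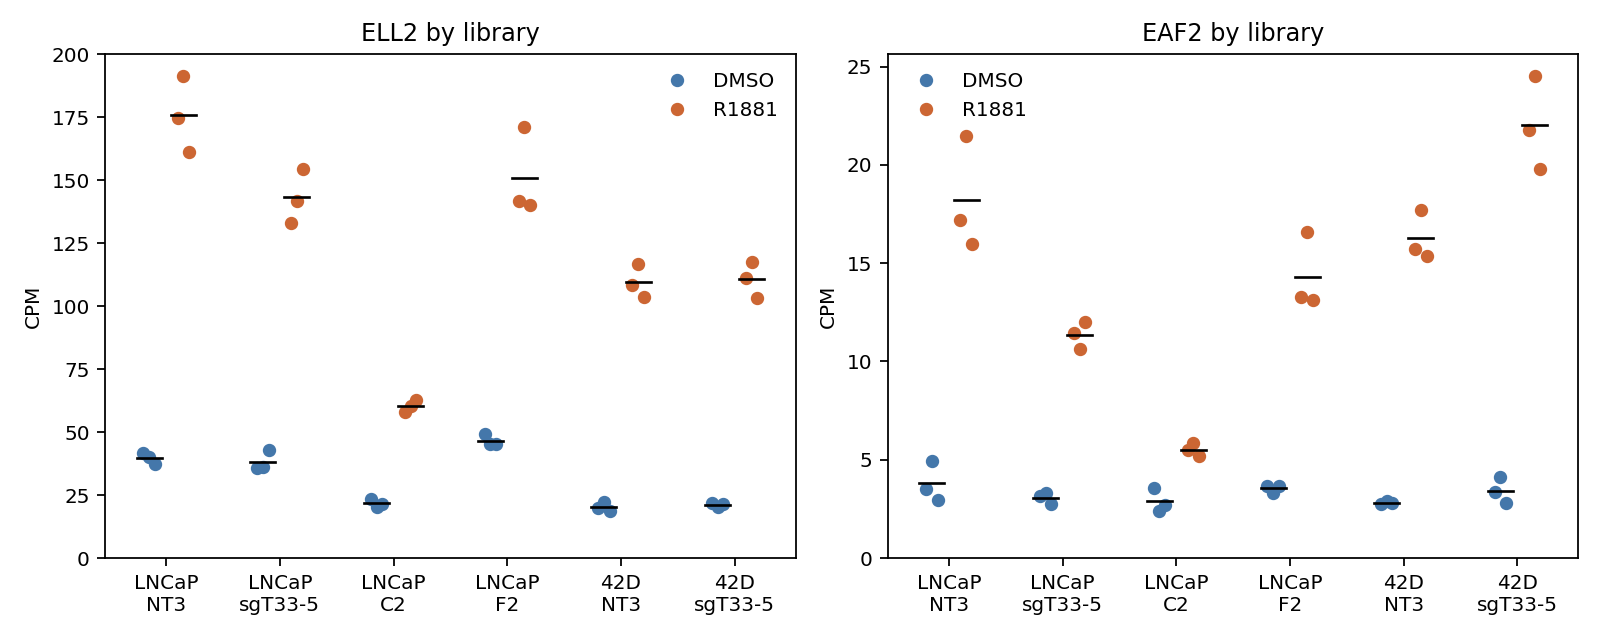
ELL2 (left) and EAF2 (right) in CPM in each of the 36 libraries, by line and treatment (DMSO blue, R1881 orange), with black bars at the group means. R1881 libraries lie above the DMSO libraries of their line everywhere, and those of C2 are the lowest R1881 libraries for both genes.

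Of the 10 members, 4 rose and 1 fell in LNCaP NT3, where 13.2% of all genes tested were called (8% higher and 5.15% lower). In sgT33-5, 3 rose and 1 fell, with a background of 12.5% (6.78% higher, 5.7% lower). In C2, 2 rose and 1 fell, with a background of 5.66% (3.6% higher, 2.06% lower). In F2, 2 rose and 1 fell, with a background of 10.4% (6.4% higher, 3.98% lower), and with the replicate block 5 members were called in place of 3. Both 42D lines had 4 members higher and 1 lower, with backgrounds of 25.3% in NT3 (13.9% higher, 11.4% lower) and 27.3% in sgT33-5 (14.1% higher, 13.2% lower). ELL2 and EAF2 rose and AFF1 fell in every line, and AFF4 and HEXIM1 made up the rest. The median log2 fold change of the 10 members was 0.143 in LNCaP NT3, beside -0.0107 over all genes tested, and 0.0358 in 42D NT3, beside -0.00318. In LNCaP NT3, 3 members were called without NT3 DMSO replicate 1.

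Among the scaffolds, AFF1 (ENSG00000172493, chr4:86935002-87141039) fell and AFF4 (ENSG00000072364, chr5:132875395-132963634) rose slightly. AFF1 fell in LNCaP NT3 from 132, 142 and 141 CPM with DMSO to 117, 116 and 114 CPM with R1881, and in 42D NT3 from 129, 126 and 137 CPM to 111, 111 and 108 CPM. The treatments did not overlap in any of the 6 lines. Its log2 fold changes were -0.27 (SE 0.0625, adjusted p = 0.00316) and -0.23 (SE 0.045, adjusted p = 0.000459) in these, -0.40 in LNCaP sgT33-5 (adjusted p = 3.9e-05), -0.29 in F2, -0.34 in 42D sgT33-5 and -0.22 in C2 (adjusted p = 0.0366). The call in C2 ended without C2 DMSO replicate 1, 2 or 3 (adjusted p = 0.0733, 0.263 and 0.135) and without C2 R1881 replicate 1 or 3 (0.221 and 0.208), over a range of 0.00128 to 1 under its alternatives. Such a range is given below for each call that a left-out library ended, and its upper end often comes from testing for a fold of at least 1.2.

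AFF4 held 355, 365 and 347 CPM in LNCaP NT3 with DMSO and 412, 424 and 403 CPM with R1881, and in 42D NT3 292, 265 and 286 CPM and 328, 314 and 327 CPM. It rose by 0.21 (SE 0.0622, adjusted p = 0.022) in LNCaP NT3, 0.22 (SE 0.0441, adjusted p = 0.000598) in 42D NT3 and 0.17 (SE 0.0441, adjusted p = 0.00524) in 42D sgT33-5. In the LNCaP guide lines AFF4 was at 0.00 in sgT33-5 (95% interval -0.13 to 0.13), 0.04 in C2 (-0.08 to 0.17) and 0.18 in F2 (0.05 to 0.30; adjusted p = 0.0736). With the replicate number as a block, the F2 value was 0.00581 as an adjusted p, and it was 0.029 without F2 DMSO replicate 2, 0.0267 without both libraries of low mitochondrial share and 0.0379 without F2 R1881 replicate 1. The call in LNCaP NT3 ended without NT3 DMSO replicate 1 or 3 (adjusted p = 0.0538 and 0.105) and without NT3 R1881 replicate 1 or 2 (0.0709 and 0.0766), over a range of 0.000773 to 1.

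HEXIM1 (ENSG00000186834, chr17:45148475-45152099), the P-TEFb inhibitor, rose by a small amount in 4 lines. LNCaP NT3 held 95.6, 104 and 98.1 CPM with DMSO and 112, 118 and 116 CPM with R1881, and 42D NT3 51, 53.6 and 60.3 CPM and 61.7, 66.2 and 70.0 CPM. The treatments did not overlap in either line. The log2 fold changes were 0.22 (SE 0.0563, adjusted p = 0.00829) in LNCaP NT3, 0.25 in LNCaP sgT33-5, 0.28 (SE 0.08, adjusted p = 0.0134) in 42D NT3 and 0.29 in 42D sgT33-5. In C2 and F2 HEXIM1 was at -0.04 (-0.16 to 0.07) and 0.01 (-0.10 to 0.13). The call in LNCaP NT3 ended without NT3 DMSO replicate 1 (adjusted p = 0.0513; range 0.00145 to 1). In 42D NT3 it ended without DMSO replicate 1 or 2 or R1881 replicate 3 (0.0791, 0.0503 and 0.0682; range 1.09e-05 to 0.765), and in 42D sgT33-5 without DMSO replicate 1 (0.0505; range 1.55e-06 to 0.674).

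The other 5 members, ELL, EAF1, CDK9, CCNT1 and CCNT2, passed the threshold of 0.05 for the adjusted p in no line in the main test. In LNCaP NT3 their log2 fold changes were 0.11 for ELL (95% interval -0.04 to 0.27), 0.13 for EAF1 (0.03 to 0.22), 0.04 for CDK9 (-0.08 to 0.17), 0.16 for CCNT1 (-0.03 to 0.35) and 0.04 for CCNT2 (-0.08 to 0.15). So ELL2 and EAF2 rose severalfold while their paralogs ELL and EAF1 stayed at small values, and the difference between paralogs was not itself tested. ELL in 42D sgT33-5 was at 0.19 (adjusted p = 0.0691), and this was 0.0208 with the replicate block, 0.0378 without sgT33-5 DMSO replicate 1 and 0.0363 without R1881 replicate 2. CCNT1 in F2 was at 0.14 (adjusted p = 0.449, or 0.0363 with the replicate block). The block also gave calls for EAF1 (adjusted p = 0.0338) and CCNT1 (0.00842) in LNCaP NT3 and for ELL in LNCaP sgT33-5 (0.0273).

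**Figure D3:**
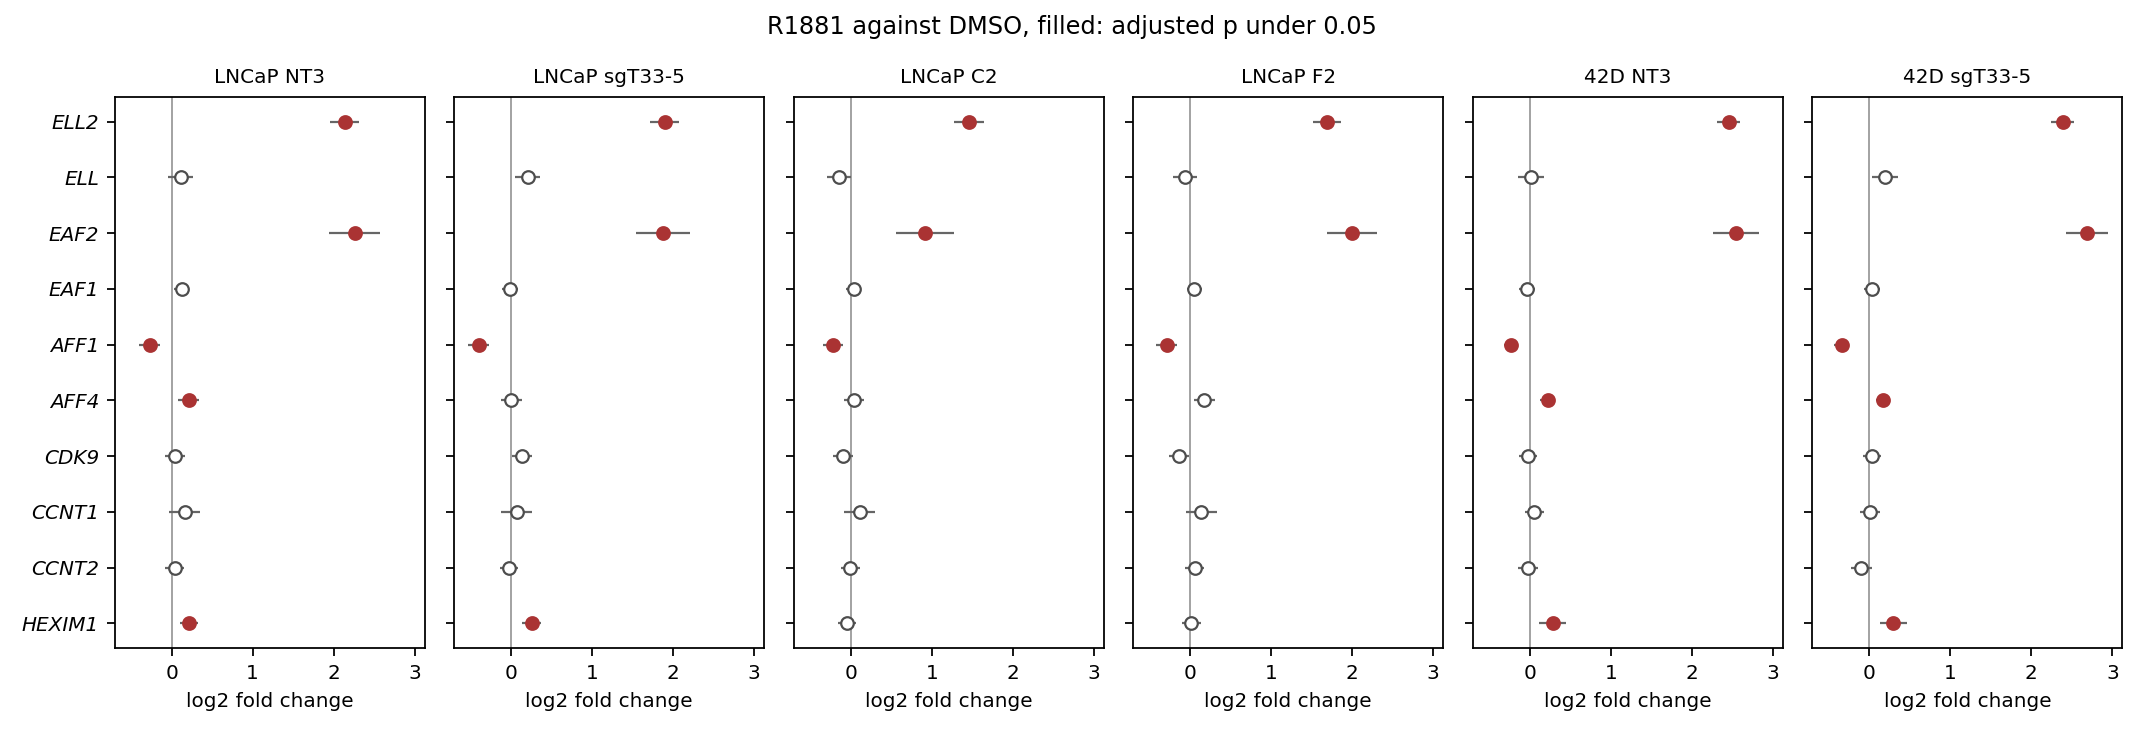
Log2 fold change of each member with R1881 against DMSO in the 6 lines, with 95% intervals. Filled points have an adjusted p under 0.05: ELL2 and EAF2 lie far to the right in every panel, AFF1 lies just left of 0 in every panel, and AFF4 and HEXIM1 are filled in some.

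The sequences upstream of the start sites are shown for EAF2, AFF1 and AFF4, which rose strongly, fell and rose slightly with R1881. They are from RefSeq on GRCh38.p14, cut to the stretch nearest the start site that overlaps no exon annotated on either strand, so that those of EAF2 and AFF4 are shorter at both ends than the RefSeq window, and are written 5′ to 3′ on the gene's strand. Capitals mark the motif CCAAT (read ATTGG on the opposite strand), the motif GGGCGG (read CCGCCC on the opposite strand) and the motif AGAACA (read TGTTCT on the opposite strand).
EAF2, chr3:121835080-121835182, plus strand: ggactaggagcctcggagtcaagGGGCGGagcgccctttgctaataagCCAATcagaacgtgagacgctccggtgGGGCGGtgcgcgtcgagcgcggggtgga
AFF1, chr4:86934761-86935001, plus strand: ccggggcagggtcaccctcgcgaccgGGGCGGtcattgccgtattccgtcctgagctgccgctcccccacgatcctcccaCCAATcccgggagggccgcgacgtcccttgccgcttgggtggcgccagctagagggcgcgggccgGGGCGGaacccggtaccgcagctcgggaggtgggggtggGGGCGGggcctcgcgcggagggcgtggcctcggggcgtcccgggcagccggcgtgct
AFF4, chr5:132963635-132963769, minus strand: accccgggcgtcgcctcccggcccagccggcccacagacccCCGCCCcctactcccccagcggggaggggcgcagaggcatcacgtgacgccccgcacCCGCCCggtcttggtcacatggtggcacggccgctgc

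RefSeq windows of 250 bases before to 50 after a start site were found for 9 of the 10 members, not for ELL2, with 11 windows in all since AFF1 and CCNT1 have 2 each. GGGCGG, the core of the box bound by Sp1-type factors, had a match in 10 of these 11 windows and in 45.0% of 35116 RefSeq windows of that length. CCAAT, a common promoter box, was matched in 7 of the 11 and in 34.6% of all windows. AGAACA, the half-site shared by steroid receptors, had no match in the 11 windows, against 14.8% of all windows. The windows of EAF2, AFF1 and AFF4 each hold GGGCGG, and a link of this motif to their responses was not tested. A match describes letters only, and elements outside the windows were not examined.

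Within the ELL family, ELL2 took the larger share of the per-length level with R1881. ELL2 made up 46.3% ± 0.159 of the summed ELL, ELL2 and ELL3 level per kb in LNCaP NT3 with DMSO (SD, n = 3). With R1881 it made up 77.7% ± 1.19. In C2 the share was 29.4% ± 0.483 with DMSO and 55.8% ± 0.757 with R1881. ELL stood there at 7.06 CPM per kb beside 2.98 for ELL2 with DMSO, and at 6.43 beside 8.23 with R1881. In 42D NT3 it was 33.2% ± 3.36 and 72.9% ± 2.16. The highest share with R1881 was that of LNCaP NT3, and C2 had the lowest at both treatments. ELL itself lay between 25.3 and 37.2 CPM over the 12 groups.

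Across the 12 groups, ELL2 was highest in LNCaP NT3 with R1881 (176 ± 15.1 CPM), then F2 (151 ± 17.4) and sgT33-5 (143 ± 10.9) with R1881. Libraries of neighbours in this stretch overlapped. The 42D sgT33-5 (111 ± 7.04) and NT3 (109.6 ± 6.55) groups with R1881 followed and overlapped each other, but not sgT33-5 of LNCaP above them. C2 with R1881 (60.3 ± 2.40 CPM) overlapped neither neighbour. Among the DMSO groups, F2 (46.6 ± 2.35) lay above NT3 (39.8 ± 2.26), which overlapped sgT33-5 (38.2 ± 3.99). C2 (21.8 ± 1.63), 42D sgT33-5 (21.2 ± 0.806) and 42D NT3 (20.3 ± 2.0 CPM) were lowest and overlapped each other.

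The guide lines were compared with NT3 because TRIM33 loss is the subject of the series title. A difference particular to a line, such as C2 or F2, cannot be told apart from an effect of the guide. The 3 LNCaP guide lines share the NT3 libraries as their control. In C2, ELL2 was lower than in NT3 already with DMSO, with a log2 fold change of -0.86 (SE 0.0934, adjusted p = 1.76e-07), and with R1881 it was at -1.54 (SE 0.0815, adjusted p = 2.54e-13). EAF2 was at -0.38 with DMSO (95% interval -0.78 to 0.01) and lower with R1881, at -1.72 (SE 0.14, adjusted p = 6.84e-10). No C2 library overlapped an NT3 library for either gene with R1881. In fold terms, C2 held 0.344 of the NT3 level of ELL2 and 0.304 of that of EAF2. EAF1 and AFF4 were also lower in C2 with R1881, at -0.14 (SE 0.0459, adjusted p = 0.026) and -0.17 (SE 0.0621, adjusted p = 0.0468).

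The call of EAF1 ended without NT3 R1881 replicate 1, 2 or 3 (adjusted p = 0.121, 0.0554, 0.0666) or C2 R1881 replicate 1 or 3 (0.16 and 0.0838), within a range of 0.00879 to 1. The call of AFF4 ended without the same 5 libraries (0.134, 0.129, 0.0803, 0.128 and 0.23), within a range of 0.00384 to 1. With no filter on low counts, the calls of EAF1 and AFF4 also ended (0.278 and 0.0682). That of EAF1 ended with only the libraries compared as well (0.0701). HEXIM1 in C2 with R1881 was at -0.15 (adjusted p = 0.0592) and at 0.0139 without C2 R1881 replicate 3. In all, 1 member was lower in C2 with DMSO, where 18.2% of genes tested were called (9.63% lower), and 4 were lower with R1881, where 23% were called (13.3% lower). The count with R1881 was 2 when NT3 R1881 replicate 1, 2 or 3 or C2 R1881 replicate 1 was left out. CCNT1 with R1881 was at -0.23 (-0.42 to -0.04; adjusted p = 0.0758), and its adjusted p was 0.0114 with no filter on low counts and 0.0167 with only the libraries compared.

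The R1881 response itself was smaller in C2 than in NT3 for ELL2 and EAF2. The difference of the 2 responses was -0.68 (SE 0.123, adjusted p = 0.00414) for ELL2 (95% interval -0.93 to -0.42) and -1.34 (SE 0.24, adjusted p = 0.00343) for EAF2 (-1.83 to -0.84). For HEXIM1 it was -0.26 (-0.42 to -0.09; adjusted p = 0.203). These 2 of 10 members stand against 0.689% of all genes tested (0.593% with a lower response), and both differences held without any single library of the 4 groups. ELL2 and EAF2 also rose in C2 with R1881, so their response there was smaller and not absent. FKBP5, an androgen target, stood at 82.9 and 283 CPM in C2 against 77.1 and 629 CPM in NT3.

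In sgT33-5, the same guide name without the MC label, EAF2 was lower than in NT3 with R1881, at -0.68 (SE 0.131, adjusted p = 0.00305), and so was ELL2, at -0.29 (SE 0.0784, adjusted p = 0.0381). No library of the 2 groups overlapped for either gene. The ELL2 call ended without NT3 R1881 replicate 1 or 2 (adjusted p = 0.127 and 0.202), without sgT33-5 R1881 replicate 1 or 2 (0.222 and 0.109), and without both libraries of low mitochondrial share (0.176), within a range of 0.000513 to 1. The EAF2 call held without each library. These 2 of 10 members stand against 3.04% of genes tested (2.06% lower), and the count was 1 when any of the 4 libraries named, or both of low mitochondrial share, were left out. With DMSO, edgeR called 0 of 10 members (background 1.4%), DESeq2 also called 0, and 1 had an unadjusted p under 0.05. ELL2 was then at -0.05 (-0.24 to 0.13) and EAF2 at -0.30 (-0.69 to 0.10). For the difference of the responses, edgeR and DESeq2 called 0 of 10, with 2 at an unadjusted p under 0.05, and edgeR called 0% of all genes tested.

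F2 differed from NT3 in other members. AFF1, the scaffold that fell with R1881, was higher in F2 by 0.29 (SE 0.0616, adjusted p = 0.00163) with DMSO and 0.27 (SE 0.0623, adjusted p = 0.00435) with R1881. Its libraries held 157, 174 and 176 CPM with DMSO and 129, 150.0 and 139 CPM with R1881, above every NT3 library of the same treatment. With DMSO, HEXIM1 was higher by 0.29 (SE 0.056, adjusted p = 0.000615), ELL by 0.28 (SE 0.0731, adjusted p = 0.01) and CDK9 by 0.20 (SE 0.0589, adjusted p = 0.0205). CCNT2 was lower, at -0.17 (SE 0.0564, adjusted p = 0.0382). So the kinase CDK9 and its inhibitor HEXIM1 were both higher in F2 without androgen, while with R1881 they were at 0.02 (-0.11 to 0.14) and 0.09 (-0.02 to 0.20). ELL2 was at 0.23 with DMSO (adjusted p = 0.0729). This was 0.0493 without both libraries of low mitochondrial share, 0.00918 with no filter on low counts and 0.037 with only the libraries compared. With R1881, ELL2 was at -0.22 (adjusted p = 0.0615, or 0.0197 with no filter). EAF2 was then at -0.35 (adjusted p = 0.0724, or 0.0163 with the replicate block).

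Without androgen, 5 members were called in F2 (4 higher, 1 lower), where 16.7% of genes tested were called (8.94% higher, 7.73% lower). With R1881, 1 was called, against 13.4% (6.19% higher). The CDK9 call ended without NT3 DMSO replicate 1 or 2 or F2 DMSO replicate 3 (adjusted p = 0.102, 0.0833 and 0.0915; range 0.00806 to 1). That of CCNT2 ended without these and without F2 DMSO replicate 1 (0.0717, 0.139, 0.128 and 0.107; range 0.0171 to 1), and that of ELL without F2 DMSO replicate 1 (0.0634; range 0.00184 to 0.945). The count was 3 when any 1 of these 4 libraries was left out. The CCNT2 call also ended with no filter on low counts (0.163) and with only the libraries compared (0.0678). CCNT1 in F2 with DMSO was at -0.12 (adjusted p = 0.43, or 0.0482 with the replicate block).

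With R1881, calls in F2 were added without single libraries. ELL2 was called without NT3 R1881 replicate 3 (adjusted p = 0.0401) or F2 R1881 replicate 2 (0.00787), EAF2 without the same libraries (0.0487 and 0.0309), and CCNT2 without F2 R1881 replicate 3 (0.0175), so that up to 3 members were called. ELL2 was also called without both sgT33-5 libraries of low mitochondrial share (0.0393). For the difference of the R1881 response, edgeR and DESeq2 called 0 of 10 members in F2, with 3 at an unadjusted p under 0.05, and edgeR called 0% of all genes. That of ELL2 was -0.45 (-0.69 to -0.21; adjusted p = 0.5). C2 and F2 were not tested against each other.

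In 42D, no member passed the threshold between the guide line and NT3 in the main test, which had no block. EAF2 with R1881 came nearest. ELL2 differed by 0.08 with DMSO (-0.09 to 0.24) and 0.01 with R1881 (-0.12 to 0.13), intervals that do not reach the values in C2. EAF2 with R1881 was at 0.43 (0.22 to 0.63; adjusted p = 0.0533), a direction opposite to that in the LNCaP guide lines, and its libraries did not overlap. With the replicate block its adjusted p was 0.000583, without sgT33-5 R1881 replicate 3 it was 0.0302, and it was 0.0467 with RLE size factors and 0.00116 with no filter on low counts (range 0.000583 to 1). Whether the guide effect on EAF2 differs between 42D and LNCaP was not tested. By edgeR, 0 of 10 members were called with DMSO (background 1.13%), with R1881 (0.513%) and for the difference of the responses (0.123%), with 0, 1 and 0 at an unadjusted p under 0.05, and DESeq2 called 0 in each. TRIM33 mRNA with R1881 was at -0.52 (SE 0.0508, adjusted p = 3.38e-06) in 42D sgT33-5 against -1.07 in LNCaP sgT33-5, -1.12 in F2 and -1.57 in C2.

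**Figure D4:**
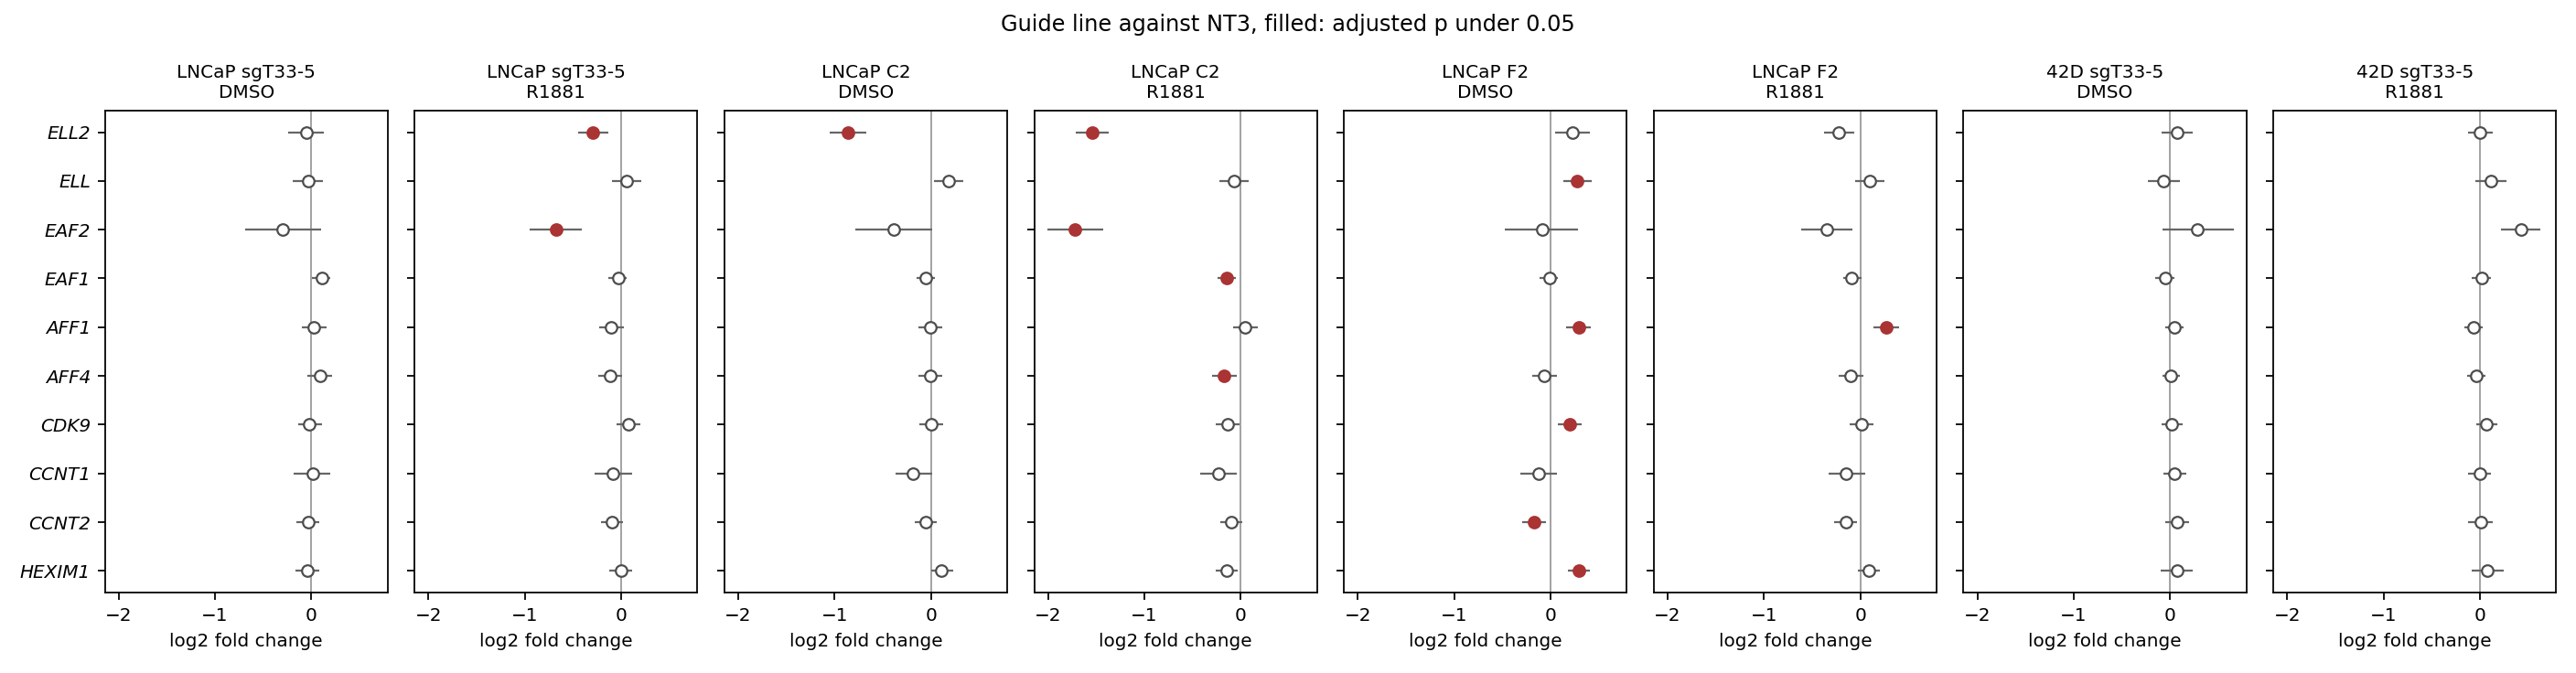
Log2 fold change of each member in a guide line against NT3 of the same cell line and treatment, with 95% intervals. Filled points have an adjusted p under 0.05: ELL2 and EAF2 lie furthest left in C2 with R1881, AFF1 is filled to the right in both F2 panels, and no point is filled in 42D.

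Between the cell lines, 42D NT3 held less of most members than LNCaP NT3. With DMSO, the log2 fold change of 42D against LNCaP was -0.98 (SE 0.0924, adjusted p = 1.74e-11) for ELL2, -0.85 (SE 0.0692, adjusted p = 2.01e-13) for HEXIM1, -0.53 (SE 0.0868, adjusted p = 2.66e-06) for CCNT1, -0.43 for CCNT2, -0.34 for AFF4 and -0.21 for ELL (adjusted p = 0.018). EAF1 was higher by 0.24 (SE 0.0469, adjusted p = 3.33e-05). Thus both cyclins of P-TEFb and its inhibitor were lower in 42D, while CDK9 was at -0.04 (-0.16 to 0.07). AFF1 was at -0.09 (-0.20 to 0.03) and EAF2 at -0.42 (-0.81 to -0.03; adjusted p = 0.0524). With R1881 it was -0.68 (SE 0.0754, adjusted p = 6.49e-10) for ELL2, -0.81 for HEXIM1, -0.66 for CCNT1, -0.52 for CCNT2, -0.36 for AFF4, -0.33 for ELL and -0.13 (SE 0.056, adjusted p = 0.0328) for CDK9, while EAF1 was at 0.05 and EAF2 at -0.16 (-0.40 to 0.08).

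These are 7 of 10 members with DMSO (1 higher, 6 lower) and 7 lower with R1881, but 68.1% of all genes tested were called with DMSO (34.8% higher, 33.3% lower) and 68.9% with R1881 (34.2% lower), so the counts over both directions are near the background. The ELL call with DMSO ended without LNCaP NT3 DMSO replicate 1 (adjusted p = 0.0876) or 42D NT3 DMSO replicate 1 (0.0787; range 0.00815 to 0.684), and EAF2 was called without LNCaP NT3 DMSO replicate 3 (0.0171; range 0.0171 to 0.408). The CDK9 call with R1881 ended without LNCaP NT3 R1881 replicate 1 or 2 (0.0932 and 0.196) or 42D NT3 R1881 replicate 1, 2 or 3 (0.0621, 0.06, 0.185), without both libraries of low mitochondrial share (0.0728), and with DESeq2 (0.0715; range 0.0236 to 1). EAF1 with R1881 was called without 42D NT3 R1881 replicate 2 (0.0486). The R1881 responses of the cell lines differed by 0.29 for ELL2 (0.05 to 0.54; adjusted p = 0.217) and 0.26 for EAF2 (-0.20 to 0.72). By edgeR and by DESeq2, 0 of 10 members were called for this difference, with 2 at an unadjusted p under 0.05 and a background of 3.85%. The endothelial list, of which VWF carried nearly all, summed to 0.418 to 1.67 CPM in 42D against 7.93 to 22.8 CPM in LNCaP, while PECAM1 and CDH5 were at or near 0 in both. The part of this in the results was not tested.

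Another 45 genes of elongation control were followed: further complex members and ELL-binding genes, P-TEFb regulators, pausing factors, other elongation factors and kinases, and polymerase II subunits. In LNCaP NT3, 43 were tested, of which 4 rose with R1881 and 1 fell, with a median of 0.0235 beside -0.0107 over all genes. In 42D NT3, 3 of 43 rose and 5 fell, with a median of 0.0109 beside -0.00318. These shares do not exceed the backgrounds of 13.2% and 25.3%. The largest change was that of AFF3, another scaffold paralog known mainly from lymphoid cells, at 20.5 ± 1.34 CPM with DMSO and 45.3 ± 1.97 CPM with R1881 in LNCaP NT3 and 6.15 ± 0.753 and 9.10 ± 0.267 CPM in 42D NT3. It rose by 1.14 (SE 0.101, adjusted p = 2.17e-09) and 0.58 (SE 0.141, adjusted p = 0.00343). In C2 with R1881 it was lower than in NT3, at -1.03 (SE 0.0988, adjusted p = 1.12e-08), and its response difference was -0.48 (SE 0.148, adjusted p = 0.213), which did not pass the threshold. So among the scaffolds AFF1 fell, AFF4 rose little and AFF3 rose most.

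AFF2, the remaining scaffold paralog, had 0 counts in the LNCaP NT3 libraries with DMSO and at 6.43 ± 0.548 CPM in 42D NT3, where it fell by 0.40 (SE 0.139, adjusted p = 0.0417) with R1881. HEXIM2, the paralog of HEXIM1, fell by 0.57 (SE 0.105, adjusted p = 0.000224) with R1881 in 42D NT3, opposite to HEXIM1, and in C2 with R1881 it was higher than in NT3 by 0.53 (SE 0.159, adjusted p = 0.0163). In the PAF1 complex, which travels with the polymerase, CDC73 rose by 0.29 (SE 0.0569, adjusted p = 0.000471) in LNCaP NT3 and 0.22 (SE 0.0435, adjusted p = 0.00051) in 42D NT3, and LEO1 fell by 0.26 (SE 0.0553, adjusted p = 0.00116) in the former and fell by 0.25 (SE 0.0501, adjusted p = 0.000531) in the latter. CDK12, an elongation kinase, rose by 0.19 (SE 0.0559, adjusted p = 0.0237) in LNCaP NT3 and was lower in C2 with R1881, at -0.19 (SE 0.0556, adjusted p = 0.0118), as was CDC73, at -0.19 (SE 0.0564, adjusted p = 0.0173). Of the polymerase II subunits, POLR2D rose by 0.23 (SE 0.0539, adjusted p = 0.00289) in LNCaP NT3 and POLR2B fell by 0.13 (SE 0.0417, adjusted p = 0.0213) in 42D NT3. MLLT1, a reader protein of the complex, was at -0.16 (SE 0.0463, adjusted p = 0.0148) in 42D NT3, IWS1, which travels with the polymerase, at 0.15 (SE 0.0488, adjusted p = 0.0264), and POLR2E in C2 against NT3 with R1881 at 0.21 (SE 0.0747, adjusted p = 0.0487). In C2 against NT3 with R1881, 2 of 43 were higher and 3 lower (background 23%).

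The genes whose pattern over the 12 groups was most like that of ELL2, by Pearson correlation of mean log2 CPM among 11196 genes with a mean of at least 5 CPM, were CAMKK2 (0.988), SEC24B (0.981), PPFIBP2 (0.978), APPBP2 (0.978) and NAT1 (0.976). CAMKK2 encodes a kinase that activates AMPK, and SEC24B a coat protein of vesicles leaving the endoplasmic reticulum. Of the members, EAF2 was nearest, with 0.924 (rank 89), followed by AFF4 at 0.601 (rank 947), and AFF1 was at -0.55. With Spearman correlation, 2 of these 5 genes (SEC24B and CAMKK2) stayed among the first 5. These are descriptions over 12 group means, most of whose spread lies between R1881 and DMSO, and no p is given.

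EAF1, AFF1, CCNT2, HEXIM1 and ELL overlap genes on the other strand in GENCODE. The library kit keeps strand, but whether the counting used it is not given in the sources used here, so reads of these genes and their antisense partners may not have been told apart.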

How the data were processed

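RNA-seq was analysed as raw counts per gene in 36 libraries, deposited by the authors in 1 table (61806 rows, 1 without a gene name left out). Per the submitters' processing notes, cutadapt, HISAT2 2.1.0 and GRCh38 (hg38) were used. The counting tool and its use of strand are not given in the sources used here. CPM were computed here with TMM scaling over all libraries, and lengths are the union of exons in GENCODE.

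The main test was edgeR 4.0.16's robust quasi-likelihood F test with filterByExpr, fitted separately to LNCaP (15519 genes), 42D (15403) and, for the cell lines, all libraries (16564), with Benjamini-Hochberg adjustment over all genes tested and a threshold of 0.05. It covered 21 comparisons. A run on simulated data drew replicates independently, without the correlation by replicate number described below, so it does not bear on that. The members and lists were chosen with earlier results of these data known. All 10 members are named, with the called genes of each list that changed most (at most 2 a direction in the NT3 responses and in C2 with R1881) and the 5 genes most like ELL2; FKBP5 is added as a reference, and 1 gene is not reported here. The test was repeated with no filter, with RLE size factors, in DESeq2 1.42.0, for a fold of at least 1.2, with a replicate block, with only the libraries compared, and without each library in turn. Omitting both libraries of low mitochondrial share was chosen after seeing the data.

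Replicate numbers come from the labels. Residuals of same-numbered libraries correlated with a median of 0.155 in LNCaP and 0.139 in 42D, against -0.0763 and -0.0875 for other numbers. Every pair exceeded 0.1 in 6 comparisons, which are called paired here. These are the R1881 responses of F2 and both 42D lines, and F2 against NT3 with DMSO. The others are sgT33-5 against NT3 with R1881 in LNCaP and in 42D. The main test had no block in these either, so its p-values do not use the pairing. Only the alternative with the replicate block does. Replicates differed beyond sampling noise in all 36 pairs (chi-square per gene 2.59 to 24.2).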

Additional observations from a re-analysis of the deposited data

Results flagged for a closer look

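The R1881 responses of C2 and NT3, both LNCaP, differed by a test of the difference itself for 2 members. For ELL2, C2 minus NT3 was -0.68 on the log2 scale (edgeR adjusted p = 0.00414), and for EAF2 it was -1.34 (edgeR adjusted p = 0.00343).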

How the results depend on the processing

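Over the 10 members, 21 comparisons and all alternatives, 2980 values were recomputed. Of these, 2852 kept their side of the threshold, 84 lost the call and 44 gained it. Among values called in the main test or the alternative, 0 changed direction, and direction was not compared where neither was called. Testing for a fold of at least 1.2 left 2 called members in the R1881 responses of LNCaP NT3 and sgT33-5 and of 42D NT3 and sgT33-5, 0 in F2 with DMSO, 0 in sgT33-5 with R1881, 2 in C2 with R1881, 0 in F2 with R1881, 1 (EAF2) in the response difference of C2 and 4 between the cell lines with DMSO. The replicate block gave 7 in the LNCaP NT3 response (adding EAF1 and CCNT1), 5 in the LNCaP sgT33-5 response, 5 in the F2 response, 6 in the 42D sgT33-5 response, 3 in C2 and 6 in F2 with DMSO, 6 in C2 with R1881 (adding HEXIM1 and CCNT1), 4 in F2 with R1881, 1 in 42D sgT33-5 with R1881, 3 in the response difference of C2 (adding HEXIM1) and 8 between the cell lines with DMSO. In the paired comparisons the block changed no call other than those given in the results. In the others within a cell line, not every same-numbered pair exceeded 0.1, and pairs across the cell lines were not examined. Even so, all 24 LNCaP and all 12 42D libraries correlated best with libraries of their own number. The main test leaves this spread shared by number out of account in every comparison. No filter on low counts gave 2 in C2 with DMSO, 2 in F2 with R1881, 1 in 42D sgT33-5 with R1881 and 1 (ELL2) in the response difference of F2. In C2 with R1881 it ended the calls of EAF1 and AFF4 and added CCNT1. In F2 with DMSO it ended that of CCNT2 and added ELL2. Fitting only the libraries compared gave 1 in LNCaP sgT33-5 with R1881, RLE size factors 1 in 42D sgT33-5 with R1881, and leaving out both libraries of low mitochondrial share 1 in LNCaP sgT33-5 with R1881 and 2 in F2 with R1881. With each library left out in turn, the count ranged from 3 to 5 in the LNCaP NT3 response and 2 to 3 in the C2 response. It ranged from 3 to 4 in the F2 response, 4 to 5 in that of 42D NT3 and 5 to 6 in that of 42D sgT33-5. Against NT3 it was 3 to 5 in F2 with DMSO and 1 to 2 in LNCaP sgT33-5 with R1881. It was 2 to 4 in C2, 1 to 3 in F2 and 0 to 1 in 42D sgT33-5, each with R1881. Between the cell lines it was 6 to 8 with DMSO and 6 to 7 with R1881. The cause of these changes was not tested. With 3 libraries a group, differences of single members under about 0.2 on the log2 scale often failed the test.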
